A study of Mus musculus with 9 samples.

Results

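The nuclear-encoded subunits of the mitochondrial respiratory chain and of the ATP synthase were examined in spermatogonia of neonatal mice. Members were chosen by gene symbol alone: Nduf genes for complex I, Sdha to Sdhd for complex II, Uqcr genes and Cyc1 for complex III, Cox4 to Cox8 genes for complex IV, Atp5 genes for complex V, and Cycs for cytochrome c. The rule took 86 genes of the 23045 whose symbol stood on 1 row of the expression table, and 82 of them were among the 11142 genes expressed highly enough to test. Complex I had 37 members, complex II 4, complex III 9, complex IV 18, complex V 17 and cytochrome c 1. Atp5s and Atp5sl carry the symbol pattern of complex V but are not subunits of the ATP synthase, so they were counted as members and left out of every value for a complex. Ndufa4 was kept in every value for complex I by its symbol, although its protein is now placed in complex IV. Subunits encoded by mitochondrial DNA were not analysed here.

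Complexes I, III and IV pass electrons from NADH to oxygen and pump protons across the inner mitochondrial membrane, complex II feeds in electrons from succinate, and complex V uses the proton gradient to make ATP. Cytochrome c is the small soluble carrier between complexes III and IV. The testis is known for expressing its own isoforms of several complex IV subunits and of cytochrome c, and germ cells are known to change their balance of glycolysis and respiration as they leave the stem cell state.

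RNA sequencing covered 9 libraries, 3 from each group, all made from LT-11B6 mice, which carry an Id4-eGfp transgene on a C57BL/6 background, at postnatal day 6. In these mice EGFP driven by Id4 marks undifferentiated spermatogonia and is brightest in those with the most stem cell activity. The first group, all ID4-EGFP+, held EGFP-positive cells sorted with no further gate; the others, TSPAN8-high and TSPAN8-low, held the 1/3 of EGFP-positive cells with the strongest and the 1/3 with the weakest antibody staining for TSPAN8, a cell surface tetraspanin. The 3 libraries of a group are separate cell preparations, and nothing in the sources used here says from how many animals each came. P-values thus measure the spread between preparations, except where replicate number was a term in the fit. In bulk RNA of this kind, fewer cells of a type and less RNA per cell cannot be told apart.

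The sort was visible in the transcripts of its target: Tspan8 averaged 34.04 ± 8.41 FPKM among TSPAN8-high libraries and 9.73 ± 2.71 among TSPAN8-low ones (mean ± SD, n = 3 each; limma, adjusted p = 0.00246). FPKM are fragment counts scaled to transcript length and to the mapped fragments of the library. Absolute depth is unknown, and relative depth was only estimated, indirectly, from genes with low FPKM. Relative to all ID4-EGFP+ replicate 1, the estimate was 1.01, 1.04 and 1.04 in the TSPAN8-high libraries and 0.855, 0.945 and 0.888 in TSPAN8-low. It was 1.03 and 0.914 in replicates 2 and 3 of all ID4-EGFP+. The TSPAN8 fractions did not overlap in this estimate, and the part of depth in the member values was not tested. Germ cell markers summed to 1798 to 2581 FPKM over the 9 libraries. The 13 Sertoli cell markers in the table summed to 92.7 to 221 FPKM in the TSPAN8-high libraries, 13.6 to 132 in TSPAN8-low and 23.6 to 107 in all ID4-EGFP+, and all 6 of those tested were higher in TSPAN8-high in the comparison of both fractions once replicate number was a term in the fit. None of the 13 was at 0 in every library. Cst9 averaged 37.8 FPKM in TSPAN8-high against 16.1 in TSPAN8-low, Clu 34.6 against 12.5 and Cst12 25.9 against 9.88. Among those too low to test, Sox9 averaged 0.103 against 0.0911 and Wt1 0.314 against 0.235. Fshr averaged 0.777 against 0.311 and Amh 0.381 against 0.0471. Of the 13, only Inhbb averaged lower in TSPAN8-high (0.0676 against 0.0936). Sums of leukocyte markers were 12.5 to 20.7 FPKM in TSPAN8-high against 5.13 to 12.7 in TSPAN8-low. The part of such RNA in the member values was not tested. Library TSPAN8-low replicate 1 stood apart for the members: their FPKM summed to 52787 there against 72014 and 69645 in replicates 2 and 3. The sum over all genes tested was also lower there, at 752820 against 855260 and 857270. The members' median and the number of members called are given with and without this library. Ratios of complex sums and counts of members without overlap are given with it only.

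The promoters of a few members are shown first, because subunit genes of these complexes are known targets of the factors NRF1, GABP (an ETS factor) and YY1. RefSeq promoter windows of build GRCm38.p6, from 250 bases before to 50 bases after the start of transcription, were found for 70 of the 86 members. They were searched on both strands for the NRF1 motif (10 bases with 1 position free, in capitals in the Sdha promoter below), CCGGAAG (ETS) and AAGATGGCG (YY1). The NRF1 letters occurred in 17 of the 70 windows (24.3%) against 5.19% of the 27025 genes with a window, the ETS letters in 16 (22.9%) against 9.93%, and the YY1 letters in 8 (11.4%) against 1.64%. By complex, the NRF1 letters were in 7 of 32 windows of complex I, 2 of 3 of complex II, 1 of 5 of complex III, 1 of 13 of complex IV and 6 of 14 of complex V. Of the 70 windows, 35 held at least 1 of the 3 motifs and 35 held none, and no window held overlapping matches of different motifs. A match here describes letters only and does not show that a factor binds.

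The 120 bases before the start site are printed for a few chosen members, 5′ to 3′ on the strand of the gene, with motif letters in capitals. Of the printed members, Sdha and Cox6b1 passed neither fit described below, and some members that passed, such as Atp5b and Cycs, are not printed. Ndufv1 (chr19:4012756-4012875, minus strand) and Ndufa12 (chr10:94198915-94199034, plus strand) are the complex I genes with the largest difference in each direction between the TSPAN8 fractions, and neither holds a match in this stretch.
Ndufv1: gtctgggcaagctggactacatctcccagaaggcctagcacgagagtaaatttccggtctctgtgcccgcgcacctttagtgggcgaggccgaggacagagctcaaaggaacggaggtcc
Ndufa12: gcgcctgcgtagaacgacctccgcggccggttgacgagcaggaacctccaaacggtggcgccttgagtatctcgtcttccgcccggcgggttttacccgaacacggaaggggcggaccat
Sdha (chr13:74350241-74350360, minus strand) has the NRF1 letters at 3 places, beginning 98, 55 and 10 bases before the start and read on the opposite strand.
Sdha: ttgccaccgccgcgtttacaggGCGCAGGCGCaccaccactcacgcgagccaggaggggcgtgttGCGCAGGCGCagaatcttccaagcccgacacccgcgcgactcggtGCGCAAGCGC
Uqcr11 (chr10:80406822-80406941, minus strand) and Uqcrh (chr4:116075071-116075190, minus strand), small subunits of complex III, each hold the ETS letters once, in opposite orientations.
Uqcr11: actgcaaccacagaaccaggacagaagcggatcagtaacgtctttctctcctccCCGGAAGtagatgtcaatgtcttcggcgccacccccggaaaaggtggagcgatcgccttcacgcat
Uqcrh: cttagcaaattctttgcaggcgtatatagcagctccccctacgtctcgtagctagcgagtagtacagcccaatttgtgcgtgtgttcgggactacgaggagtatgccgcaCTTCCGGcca
Cox6b1 (chr7:30626115-30626234, minus strand) and Cox6b2 (chr7:4753095-4753214, minus strand) encode the general and the testis isoform of the same complex IV subunit. The former holds the ETS letters once and the latter none of the 3 motifs.
Cox6b1: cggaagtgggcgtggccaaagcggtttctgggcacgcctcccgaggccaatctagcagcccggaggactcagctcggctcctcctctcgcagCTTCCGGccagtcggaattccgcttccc
Cox6b2: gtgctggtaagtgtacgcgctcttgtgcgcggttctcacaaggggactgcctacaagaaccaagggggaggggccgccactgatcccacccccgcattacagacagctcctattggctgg

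Members were among the most abundant transcripts of these cells. The median of their mean FPKM was 584, against 10.3 over all genes tested, and 55 of the 82 lay above the 95th percentile of all genes tested (305 FPKM). They made up 7.26 ± 0.590% of all FPKM in all ID4-EGFP+, 7.09 ± 0.203% in TSPAN8-high and 7.84 ± 0.741% in TSPAN8-low (n = 3 each). In all ID4-EGFP+ replicate 2 a single small RNA gene, Snord68, held 11.4% of the summed FPKM, and the members' share there was the lowest of its group at 6.60%. The highest member was Uqcrb, a small subunit of complex III, with a mean of 3364 FPKM and rank 10 among all genes tested. Cox6b2, at 22.98 FPKM, was the lowest tested subunit of complexes I to V. Within complex I the highest was Ndufb6, an accessory subunit of the membrane arm, at 1988 FPKM. Within complex II, Sdha, the flavoprotein that oxidises succinate, was lowest at 78.6 FPKM and Sdhb, which carries the iron-sulfur clusters, highest at 547. Within complex III the lowest was Uqcrc2, a core protein, at 109 FPKM. Cox4i1 led complex IV at 2205 FPKM. In complex V, Atp5l, subunit g of the membrane part, was highest at 1863 FPKM and Atp5a1, the alpha subunit of the head, lowest at 219.

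Between TSPAN8-high and TSPAN8-low, most members had slightly lower estimates in TSPAN8-high, and none passed the test. The median log2 fold change of the 82 tested members was -0.17, against 0.05 over all genes tested, with 14 estimates above 0 and 68 below. All fold changes here refer to log2(FPKM + 1). At an adjusted p under 0.05 (limma over 11142 genes, Benjamini-Hochberg), 0 of 82 members were called. Of all genes tested, 5.56% were called (380 higher and 239 lower in TSPAN8-high). An unadjusted p under 0.05 was reached by 11 of 82 members and by 2448 of the 11142 genes. The split of calls over all genes depended on scaling: it was 228 higher and 362 lower with libraries set to a common median, 250 and 300 after quantile normalization, and 223 and 307 with the authors' normalized values. The members' median was below 0 under each of these scalings, at -0.26, -0.09 and -0.09, while that of all genes moved to -0.04, 0.00 and 0.00.

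Libraries with the same replicate number deviated together, so a fit with replicate number as a block was set beside the first. Its p-values measure the spread that is left once differences between replicate numbers are taken out. With the block, 2 members were higher and 9 lower in TSPAN8-high (11 of 82, 13.4%), while 19.1% of all genes tested passed (11.8% higher, 7.34% lower). The count of lower members was thus 9 of 82 beside a background of 7.34%, and that of higher members 2 of 82 beside 11.8%. FPKM of the 2 groups did not overlap for 9 of 82 members, against 25.6% of all genes tested. Of these, 1 was higher (Ndufv1; 15.9% of all genes) and 8 were lower (Ndufa1, Ndufa12, Ndufa4, Ndufc1, Ndufc2, Ndufv2, Atp5f1 and Cycs; 9.71% of all genes). Without TSPAN8-low replicate 1, the members' median moved from -0.17 to -0.29, and with the block 31 members passed instead of 11 (4 higher, 27 lower; background 20.1%); without the block the count stayed at 0.

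**Figure D1:**
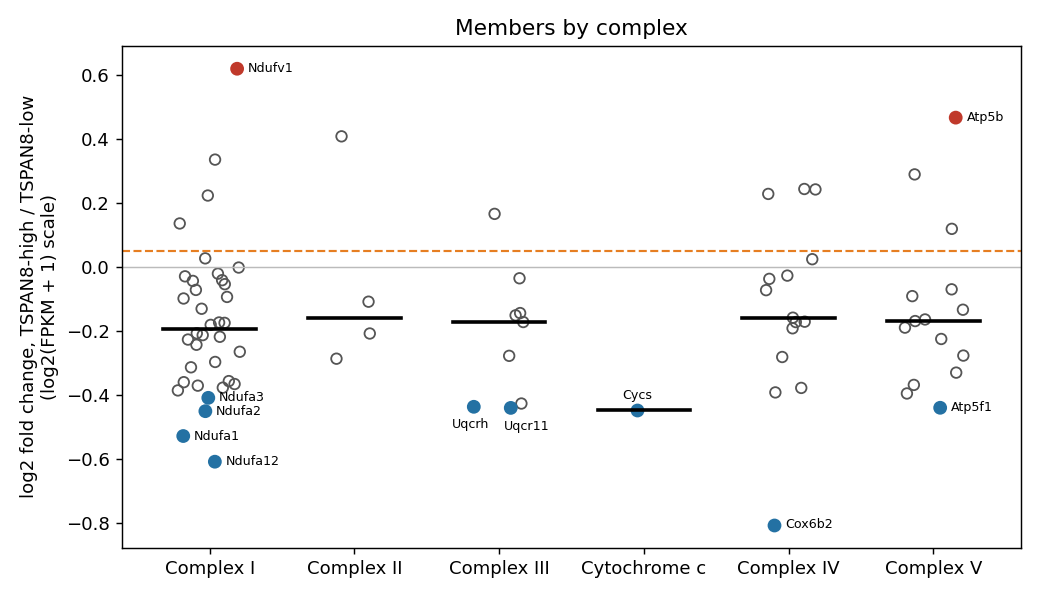
Log2 fold change of each tested subunit, TSPAN8-high over TSPAN8-low, by complex (n = 3 libraries a group); black bars are complex medians and the orange dashed line is the median of all genes tested (0.05). Filled, named points passed only in the fit with the replicate block: Ndufv1 and Atp5b were higher (red) and 9 members lower (blue), and all complex medians lie between -0.45 and -0.16.

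In complex I, 5 of 36 tested subunits had estimates above 0 and the median was -0.19; the block fit called 1 higher and 4 lower. The member with the largest positive value was Ndufv1, which binds FMN and takes electrons from NADH. It read 275, 369 and 426 FPKM in TSPAN8-high replicates 1 to 3, 189, 269 and 234 in TSPAN8-low, and 245, 311 and 334 in all ID4-EGFP+. All TSPAN8-high values lay above all TSPAN8-low values, and the difference had the same sign in 3 of 3 pairs. The log2 fold change was 0.62 (SE 0.20), with an adjusted p of 0.0932 in limma without and 0.00347 with the block. Other catalytic core subunits were mixed: Ndufs1 had a log2 fold change of 0.34, while Ndufv2, the partner of Ndufv1 in the NADH-oxidising module, had -0.31. Neither passed either fit. Over the 7 core subunits the median was -0.09 with 3 estimates above 0.

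Accessory subunits surround the core and are needed to assemble or stabilise it. The 29 tested genes counted as such had a median of -0.21 with 2 estimates above 0 and 27 below. Ndufa4 (-0.23) was among them by its symbol only. Ndufa12, on the matrix arm, read 175, 192 and 241 FPKM in TSPAN8-high against 246, 304 and 385 in TSPAN8-low, and 272, 234 and 316 in all ID4-EGFP+. The TSPAN8 fractions did not overlap, and the log2 fold change was -0.61 (SE 0.19; limma adjusted p = 0.0921, and 0.00532 with the block). Ndufa1, a small membrane subunit whose loss blocks assembly, read 554, 608 and 588 FPKM in the TSPAN8-high libraries, 768, 920 and 842 in TSPAN8-low, and 721, 763 and 554 in all ID4-EGFP+. These TSPAN8 groups were also apart, with a log2 fold change of -0.53 (SE 0.16; limma adjusted p = 0.0716, and 0.0126 with the block). Ndufa2 and Ndufa3 had log2 fold changes of -0.45 and -0.41 and passed only with the block (limma, adjusted p = 0.0265 and 0.0421, against 0.163 and 0.274 without). For Ndufa2 the values were 585, 607 and 754 FPKM in the TSPAN8-high libraries, 703, 948 and 1025 in TSPAN8-low, and 853, 765 and 950 in all ID4-EGFP+. For Ndufa3 they were 634, 732 and 946 FPKM, 765, 1155 and 1164, and 962, 954 and 1232 in the same order. In both genes TSPAN8-high replicate 3 reached above TSPAN8-low replicate 1. Ndufb6, the most abundant, read 1922 ± 283 FPKM in TSPAN8-high, against 2263 ± 214 in TSPAN8-low, and did not pass.

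**Figure D2:**
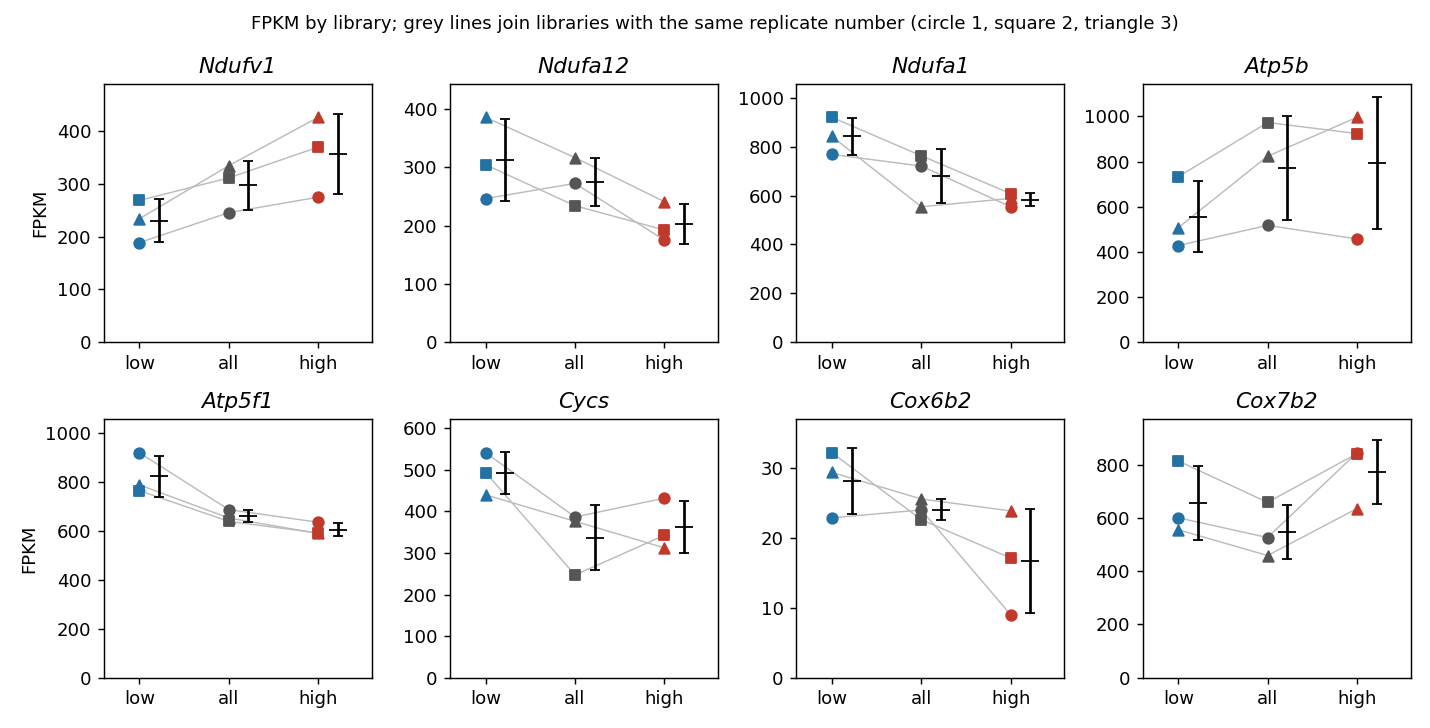
FPKM in each library for 8 members, with mean ± SD (n = 3) as black bars and grey lines joining equal replicate numbers. Ndufv1 and Ndufa12 separate TSPAN8-high from TSPAN8-low in opposite directions, while Atp5b shows a spread between replicate numbers (428 to 733 FPKM in TSPAN8-low) as large as its difference between groups.

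None of the 4 subunits of complex II passed either fit, and the median was -0.16. Sdha read 65.6, 105 and 100 FPKM in the TSPAN8-high libraries, 62.2, 76.9 and 61.3 in TSPAN8-low, and 62.2, 106 and 67.5 in all ID4-EGFP+. Its TSPAN8 fractions overlapped, and the log2 fold change was 0.41 (SE 0.23; limma adjusted p = 0.320, and 0.0578 with the block). The other 3 had negative estimates: Sdhb -0.21, and the membrane anchors Sdhc -0.11 and Sdhd -0.29. Sdhd averaged 272 ± 41.6 FPKM in TSPAN8-high against 332 ± 51.8 in TSPAN8-low.

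In complex III, 8 of 9 subunits had estimates below 0, with a median of -0.17. The 4 core and redox proteins (Uqcrc1, Uqcrc2, Cyc1, which is cytochrome c1, and Uqcrfs1, the Rieske protein) had a median of -0.15, and the 5 small accessory subunits one of -0.43 with no estimate above 0. Uqcrh, the hinge protein that helps cytochrome c1 meet cytochrome c, read 801, 853 and 993 FPKM in the TSPAN8-high libraries, 928, 1309 and 1385 in TSPAN8-low, and 1092, 947 and 1340 in all ID4-EGFP+. Uqcr11, the smallest subunit, read 1880, 1808 and 2177 FPKM in the TSPAN8-high libraries, 2115, 2789 and 3132 in TSPAN8-low, and 2558, 2041 and 2614 in all ID4-EGFP+. In both, only TSPAN8-low replicate 1 fell within the range of TSPAN8-high. Both had a log2 fold change of -0.44 and passed only with the block (limma, adjusted p = 0.0392 for Uqcrh and 0.0450 for Uqcr11, against 0.204 and 0.178 without). Uqcrb, the most abundant, had an estimate of -0.03.

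Cycs, which encodes somatic cytochrome c, read 432, 342 and 312 FPKM in the TSPAN8-high libraries, 541, 493 and 440 in TSPAN8-low, and 386, 247 and 376 in all ID4-EGFP+. TSPAN8-low was highest in all 3 numbered sets and did not overlap with either of the other groups. Against TSPAN8-high the log2 fold change was -0.45 (SE 0.20; limma adjusted p = 0.204, and 0.0497 with the block), and TSPAN8-low against all ID4-EGFP+ it was 0.57 (adjusted p = 0.600, and 0.0967 with the block). The testis paralog Cyct, outside the symbol rule, stood at 451 ± 28.7 FPKM in TSPAN8-high against 542 ± 98.5 in TSPAN8-low and did not pass.

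Complex IV had a median of -0.16 over 15 tested subunits, 4 of them above 0. The subunit with the largest difference was Cox6b2, which read 9.02, 17.1 and 23.9 FPKM in the TSPAN8-high libraries, 22.9, 32.2 and 29.4 in TSPAN8-low, and 24.03, 22.6 and 25.6 in all ID4-EGFP+. TSPAN8-high replicate 3 lay just above TSPAN8-low replicate 1, so the groups overlapped, while TSPAN8-high was lower in 3 of 3 pairs. The log2 fold change was -0.81 (SE 0.27; limma adjusted p = 0.104, and 0.0150 with the block). Cox6b1 was level, at 1117 ± 148 FPKM in TSPAN8-high, against 1119 ± 290 in TSPAN8-low (log2 fold change 0.02, SE 0.20). Cox6a1 and Cox5b had estimates of -0.39 and -0.38 and did not pass either fit.

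In complex V, the 5 subunits of the F1 part, its catalytic head and central stalk, had a median of -0.09 with 2 estimates above 0. Both were head subunits, Atp5a1 (0.29) and Atp5b. The 10 subunits of the membrane part and peripheral stalk had a median of -0.23 with 1 estimate above 0. Atp5b, the beta subunit that carries the catalytic sites, read 458, 924 and 996 FPKM in the TSPAN8-high libraries, 428, 733 and 507 in TSPAN8-low, and 518, 973 and 824 in all ID4-EGFP+. The groups overlapped and replicate 1 was lowest in every group, but TSPAN8-high was above TSPAN8-low in 3 of 3 pairs. The log2 fold change was 0.47 (SE 0.32; limma adjusted p = 0.415, and 0.0448 with the block). Atp5f1, the older symbol of subunit b in the peripheral stalk, read 635, 591 and 590 FPKM in the TSPAN8-high libraries, 919, 764 and 788 in TSPAN8-low, and 687, 639 and 653 in all ID4-EGFP+. All 3 groups were apart, with all ID4-EGFP+ in the middle. Its log2 fold change was -0.44 (SE 0.14; limma adjusted p = 0.0823, and 0.0128 with the block), and 2 members, Atp5f1 and Ndufa1, passed without the block when libraries were set to a common median. Atp5o, which joins the stalk to the head, averaged 981 ± 109 FPKM in TSPAN8-high, against 1246 ± 248 in TSPAN8-low and did not pass. Of the members outside the complexes, Atp5s averaged 39.9 ± 9.86 against 48.4 ± 4.83 FPKM, and Atp5sl 22.6 ± 4.03 against 22.9 ± 4.19.

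The block calls differed in how far they rested on single libraries. With each of the 9 libraries left out in turn, Ndufv1 and Ndufa12 passed in 9 of 9 block fits, Cox6b2 in 7, Atp5f1 and Ndufa1 in 6, Ndufa2 in 4, Atp5b, Ndufa3, Uqcr11 and Uqcrh in 3 and Cycs in 2. Without all of replicate 3 the block fit called 1 member, Cox6b2, beside 6.99% of all genes tested.

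Summed FPKM averaged lowest in TSPAN8-high and highest in TSPAN8-low in complexes I, II, III and V, and in complex IV TSPAN8-low (14416) and all ID4-EGFP+ (14423) were level. For complex I the sum was 19219, 19520 and 20787 in TSPAN8-high, 19426, 25449 and 25340 in TSPAN8-low, and 21948, 19953 and 23527 in all ID4-EGFP+. For complex III it was 8363, 8961 and 8876 in TSPAN8-high and 8663, 11503 and 10796 in TSPAN8-low. In both, TSPAN8-low replicates 2 and 3 lay above every TSPAN8-high library and replicate 1 did not. For complex IV the sums were 11265, 13355 and 14151 against 10875, 16805 and 15568, and for complex V 11908, 13554 and 14120 against 12130, 16649 and 16025. Complex II summed to 1042 ± 83.9 in TSPAN8-high and 1177 ± 196 in TSPAN8-low. The mean of TSPAN8-high was 0.848 of that of TSPAN8-low for complex I, 0.886 for II, 0.846 for III, 0.897 for IV and 0.883 for V, and the fractions overlapped in each. For the summed FPKM of all genes tested this ratio was 0.950.

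**Figure D3:**
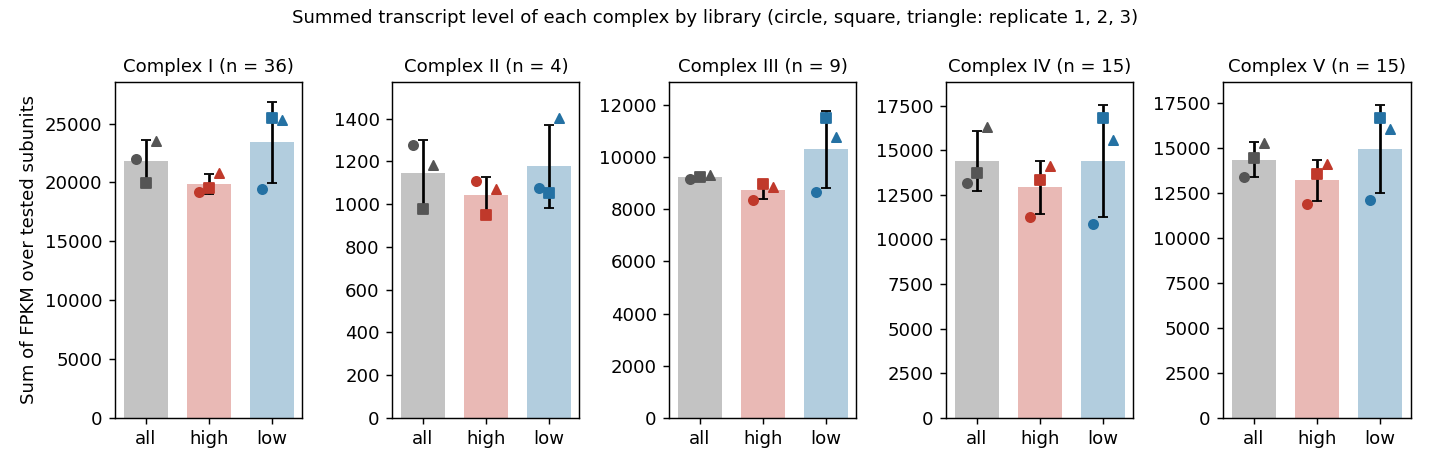
Sum of FPKM over the tested subunits of each complex in each library; bars and error bars are mean ± SD of 3 libraries for all ID4-EGFP+ (all), TSPAN8-high (high) and TSPAN8-low (low). TSPAN8-low replicate 1 (circle) lies within or below the range of TSPAN8-high in every complex, while TSPAN8-low replicates 2 and 3 lie above them in complexes I, III, IV and V.

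Several subunits have tissue isoforms, and the share of each isoform in the FPKM of its family does not depend on how a library is scaled. Cox4i1 held all but 0.0121% or less of the Cox4i sum. The lung isoform Cox4i2 averaged 0.0437 FPKM over the 9 libraries and the muscle isoform Cox6a2 0.281, both too low to test, and the muscle isoform Cox8b was listed at 0 in all 9. Ndufa4l2, the hypoxia-associated paralog of Ndufa4 (a gene named for complex I whose protein is now placed in complex IV), averaged 0.665 FPKM and was not tested. It read 0.606, 0.763 and 0.984 FPKM in the TSPAN8-high libraries, 0.0708, 0.385 and 0.545 in TSPAN8-low, and 1.14, 0.760 and 0.731 in all ID4-EGFP+.

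The testis isoform Cox6b2 held 1.43 ± 0.476% of the Cox6b sum in TSPAN8-high, 2.50 ± 0.296% in TSPAN8-low and 1.98 ± 0.109% in all ID4-EGFP+ (n = 3 each). The TSPAN8 fractions did not overlap in this share (two-sided exact permutation test, p = 0.1, the smallest that 3 against 3 libraries can give). Cox7b2, a testis-expressed isoform, exceeded Cox7b in every library and held 75.8 ± 3.76% of their sum in TSPAN8-high, 75.7 ± 3.14% in TSPAN8-low and 72.2 ± 2.11% in all ID4-EGFP+. Cox8c, the testis isoform of Cox8, held 5.35 ± 1.04% in TSPAN8-high and 4.05 ± 0.307% in TSPAN8-low, again with no overlap (exact permutation p = 0.1). Among the 3 genes for the c subunit of the ATP synthase ring, Atp5g1 held 43.2 ± 3.04% in TSPAN8-high and 49.3 ± 4.08% in TSPAN8-low (exact permutation p = 0.1), and Atp5g3 46.0 ± 3.50% and 40.0 ± 4.32% (exact permutation p = 0.2). Atp5g2 held 10.8 ± 1.29% and 10.6 ± 0.528%. The muscle-type Cox7a1 held 7.34 ± 0.690% of the Cox7a family in TSPAN8-high and 8.05 ± 0.998% in TSPAN8-low, where Cox7a2 held 73.2 ± 2.40% and 74.0 ± 1.95%. Over the 19 shares compared, each p of 0.1 became 0.271 after Benjamini-Hochberg adjustment of these exact tests. The 19 include mirror-image shares with the same p, such as Cox6b1 and Cox6b2, and Cox8b, whose share did not vary. Because 0.1 is the smallest exact p that 3 against 3 libraries can give, no share could have passed. These tests thus cannot decide whether the shares differ.

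**Figure D4:**
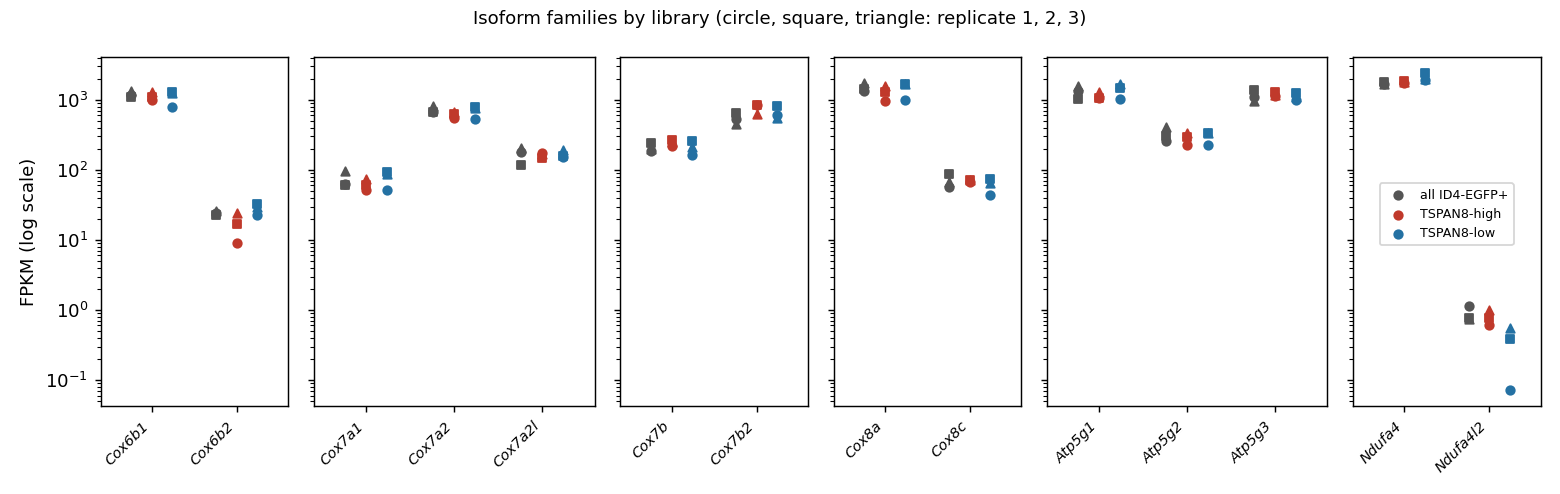
FPKM (log scale) of isoform families in each library, coloured by group. Cox7b2 lies above Cox7b in all 9 libraries, the testis isoforms Cox6b2 and Cox8c lie more than an order of magnitude below Cox6b1 and Cox8a, and Ndufa4l2 is near 1 FPKM or below.

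Against all ID4-EGFP+, TSPAN8-high members had a median log2 fold change of -0.16 (all genes tested, -0.01), with 22 estimates above 0 and 60 below. No member was called (0 of 82), beside 0.144% of all genes tested. An unadjusted p under 0.05 was reached by 5 of 82 members and by 1085 of 11142 genes. With the block, limma called 1, Cox7b2, beside a background of 3.09% (1.23% higher). Cox7b2 read 846, 842 and 636 FPKM in TSPAN8-high and 527, 659 and 459 in all ID4-EGFP+, with 601, 815 and 556 in TSPAN8-low. TSPAN8-high was higher in each numbered pair, although the groups overlapped (log2 fold change 0.50, limma adjusted p = 0.396, and 0.0381 with the block). The block call was absent when libraries were set to a common median and present after quantile normalization. The number called with the block changed with single libraries. Without all ID4-EGFP+ replicate 2 the block called 7 members (1 higher, 6 lower), beside 4.92% of all genes tested. It called 4 (1 higher, 3 lower) when TSPAN8-low replicate 1 was dropped, beside 5.37%, and 2 when its replicate 2 was, beside 3.58%. When TSPAN8-high replicate 3 was dropped it called 1, Cox6b2, beside 1.81%. It called 0 when any of the other 5 libraries was left out (0.808% to 2.81% of all genes), so Cox7b2 passed in 3 of these 9 fits. Groups did not overlap for 4 members, Ndufa2, Ndufa3, Ndufb3 and Atp5f1, all lower in TSPAN8-high (4.88% of members, against 15.1% of all genes in either direction and 8.34% lower).

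TSPAN8-low against all ID4-EGFP+ gave a median of 0.01 (all genes tested, -0.07), with 42 estimates above 0 and 40 below. No member was called by limma without the block (0 of 82, background 0.0%) or with it (background 0.0449%). Without the block, an unadjusted p under 0.05 was reached by 4 of 82 members and by 910 of 11142 genes. Groups did not overlap for 9 of 82 members, against 14.3% of all genes. The 8 higher ones were Ndufa1, Ndufa4, Ndufb6, Ndufc2, Ndufv2, Atp5f1, Atp5s and Cycs (3.44% of all genes were higher without overlap), and Uqcrc1 was lower (10.8% of all genes). The sign of the median turned with the library left out: it was 0.18 without TSPAN8-low replicate 1, -0.05 without its replicate 2 and -0.08 without its replicate 3, and -0.01, -0.09 and 0.10 without all ID4-EGFP+ replicates 1, 2 and 3. The 3 comparisons share libraries, so their values are not independent of each other.

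Other genes of mitochondrial respiration were counted in the same TSPAN8-high against TSPAN8-low fits, and none of the lists in this paragraph had a member called without the block. With it, 7.34% of all genes tested were lower and 11.8% higher, the background for each count that follows. Of 43 assembly factors, 0 were higher and 3 (6.98%) lower with the block (median -0.15). Coa4, an assembly factor of complex IV, averaged 11.7 ± 1.17 FPKM in TSPAN8-high against 15.8 ± 1.63 in TSPAN8-low (limma adjusted p = 0.128, and 0.0441 with the block). Tmem126b, which helps assemble complex I, averaged 46.0 ± 8.43 and 61.2 ± 5.05 FPKM (adjusted p = 0.146, and 0.0272 with the block). Of 76 mitochondrial ribosomal proteins, which translate the subunits encoded by mitochondrial DNA, 0 were higher and 6 (7.89%) lower with the block (median -0.15), so the lower share of both lists was near the background. Mrpl54 and Mrps24 had the smallest p, with log2 fold changes of -0.56 and -0.53. Of 7 subunits and regulators outside the symbol rule, 0 were higher and 1 lower with the block, and all 7 estimates were below 0 (median -0.25). The lower one was Higd1a, a factor associated with complex IV, at 135 ± 11.03 FPKM in TSPAN8-high against 175 ± 24.3 in TSPAN8-low. The next was Ndufab1, the acyl carrier protein bound to complex I, at 1013 ± 87.0 and 1215 ± 90.6 FPKM, which did not pass.

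The 13 tricarboxylic acid cycle enzymes, which supply NADH and succinate, had a median of 0.13, with 9 estimates above 0. With the block, 2 of 13 were higher and 1 lower, beside 11.8% and 7.34% of all genes tested. The lower one, Ogdh, a subunit of the 2-oxoglutarate dehydrogenase complex, averaged 69.7 ± 20.04 FPKM in the TSPAN8-high libraries, 129 ± 34.5 in TSPAN8-low and 138 in all ID4-EGFP+ (log2 fold change -0.88; limma adjusted p = 0.0549, and 0.00282 with the block). The 2 higher ones, Idh3b and Dlst, each had a log2 fold change of 0.42. Their limma adjusted p was 0.229 and 0.199 without the block, and 0.0145 and 0.0416 with it. Idh3a, of the NAD-dependent isocitrate dehydrogenase, had a log2 fold change of -0.34 and did not pass. Of 10 tested regulators of mitochondrial biogenesis, 0 were higher and 1 lower with the block, beside the same shares of all genes (median -0.04). Tfb2m, a mitochondrial transcription factor, averaged 46.7 ± 6.75 FPKM in TSPAN8-high against 67.4 ± 13.4 in TSPAN8-low (limma adjusted p = 0.115, and 0.00665 with the block). The next by p, Yy1, averaged 6.51 ± 1.60 and 8.63 ± 2.22 FPKM and did not pass.

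Log2 fold changes between the TSPAN8 fractions tended to rise with the length of the coding sequence, among members as among all genes. That length was taken as the longest one annotated for each gene. Across the 80 tested subunits Spearman's rho between coding length and log2 fold change was 0.42, and across the 10602 tested genes with a coding length it was 0.28; genes are not independent replicates, and all points share the same 6 libraries. The 59 subunits with coding sequences under 600 bases had a median log2 fold change of -0.21 (6 above 0), against -0.13 for the 1614 tested genes that short. The 21 of at least 600 bases had a median of -0.09 (8 above 0), against 0.09 for 8988 genes (5584 above 0). Among these 21, the 9 of at least 1200 bases had a median of 0.29 (7 above 0), against 0.13 for 5691 genes. Of the 11 members passing with the block, the higher pair, Ndufv1 (1392 bases) and Atp5b (1587 bases), are long, Atp5f1 has 768 bases, and the 8 other lower members are under 600. Sdha, Ndufs1 and Atp5a1, with estimates of 0.41, 0.34 and 0.29, have 1992, 2181 and 1659 bases.

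The same contrast was taken within each library, as the mean log2(FPKM + 1) of subunits under 600 bases minus that of subunits of at least 1200. It was 1.73, 1.39 and 1.37 in TSPAN8-high, 1.85, 1.96 and 2.12 in TSPAN8-low, and 1.87, 1.43 and 1.80 in all ID4-EGFP+. The TSPAN8 fractions did not overlap. For all genes tested it was 2.03, 1.99 and 2.06 in TSPAN8-high and 2.04, 2.31 and 2.41 in TSPAN8-low, where only TSPAN8-low replicate 1 reached the range of TSPAN8-high. The part of transcript length in the member values was not tested beyond these numbers. Reads of small subunit genes can also be split with near-identical processed copies elsewhere in the genome, and the libraries do not mark strand, so overlapping genes were not separated.

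**Figure D5:**
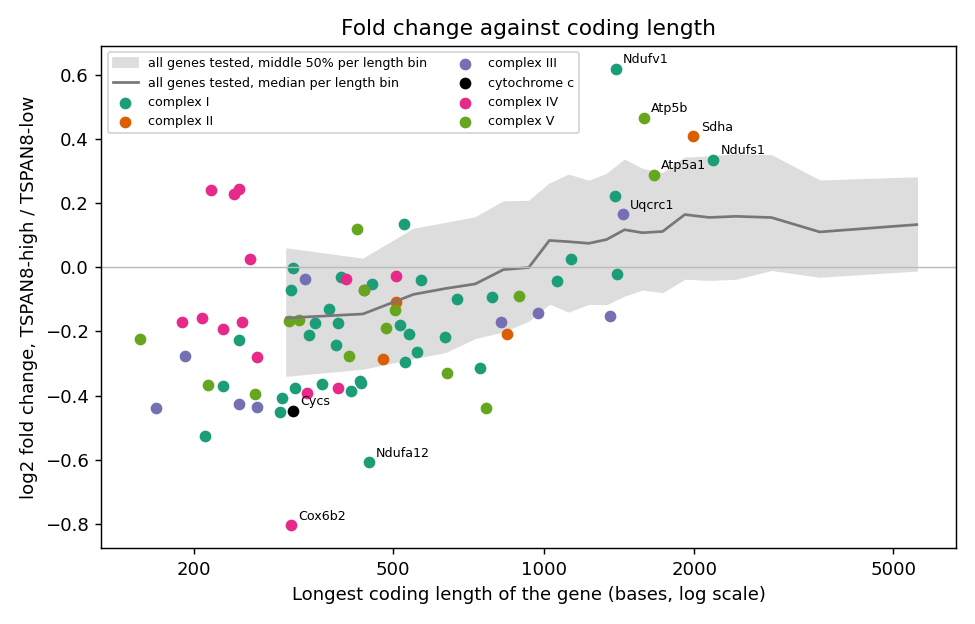
Log2 fold change, TSPAN8-high over TSPAN8-low, against coding length (log scale) for the 80 tested subunits by complex, with the median and the middle 50% of all genes tested in 20 length bins. Most subunits are short and lie at or below the line of all genes, and the long Ndufv1, Atp5b, Sdha and Ndufs1 lie above it.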

How the data were processed

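Poly(A)-primed cDNA (SMART-Seq v4) was made into Nextera XT libraries and sequenced paired-end, per the labels' protocols. Bowtie2 2.2.3.0, TopHat2 2.0.12, FastQC and Cufflinks are named as tools and mm9 as the build, per the submitters' processing notes. For Cufflinks, the sources used here give neither version nor annotation. The authors deposited Cufflinks FPKM per library, which were tested here, and a table of normalized signal values, used only as an alternative. A further deposited table of log10 values was not used.

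Of 23813 rows, 768 rows with 262 repeated symbols were left out; 27 rows hold dates instead of symbols. Genes were tested where 3 or more of the 9 libraries reached 1 FPKM, with limma 3.58.1 in R 4.3.3 (one fit of 3 groups, two-sided, with an intensity trend in eBayes). Values entered as log2(FPKM + 1), with Benjamini-Hochberg adjustment over 11142 genes and a call at adjusted p under 0.05. Such a scale understates changes of low genes. The scripts were tested on simulated data. Members and lists were chosen with earlier results of these data known. Members named with values were those called in any of the 3 comparisons in the fits to all 9 libraries, with or without the block, per complex the 2 with the smallest p and those with the highest and lowest mean, the isoform families and the members outside the complexes; a few others were named after their values were seen. Of each further list, the 2 genes with the smallest p were named, with a few others such as Idh3b and Dlst. The result of 1 member that this rule names is not reported here.

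Deviations from the group mean correlated between libraries of equal replicate number in other groups (9 pairs, r of 0.26 to 0.48; 18 other pairs, -0.46 to 0.28), so the number was taken to pair the samples, from the data and not from the labels. Coding lengths came from GENCODE M21 and promoters from RefSeq (GRCm38.p6), a later build than that of the files, joined by symbol. Alternatives were another pseudocount (0.1), other filters, scalings, the authors' values, the replicate block, 2-group fits and left-out libraries; blocked fits with left-out libraries or other scalings were chosen after seeing the data. Tables and plots used Python 3.11.15, pandas 2.3.3 and matplotlib 3.10.9.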

Additional observations from a re-analysis of the deposited data

How the results depend on the processing

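The members' median log2 fold change between TSPAN8-high and TSPAN8-low stayed below 0 under every alternative run (-0.29 to -0.08), as did the medians of complexes I, III and V and Cycs; that of complex IV was 0.0099 without TSPAN8-low replicate 2. For complex II, with 4 subunits, the median was 0.018 without TSPAN8-low replicate 3, -0.294 without replicate 1 and -0.019 without replicate 3 of all groups. The median of TSPAN8-low against all ID4-EGFP+ ranged from -0.12 to 0.18 with libraries left out. Members called between TSPAN8-high and TSPAN8-low numbered 2 with a common median (5.3% of all genes tested) and 11 with the replicate block (19.1%). Without TSPAN8-high replicate 1 there was 1, Ndufv1 (background 4.81%), and without TSPAN8-high replicate 3 there was 1, Cox6b2 (background 2.55%). There were 0 under the other alternatives. The replicate block also called 1 member between TSPAN8-high and all ID4-EGFP+, and changed no other call of a member in these comparisons.

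With the replicate block, leaving out libraries gave 1 to 31 members called of 82 between TSPAN8-high and TSPAN8-low. Percentages in brackets are the share of all genes called in the same fit. Without all ID4-EGFP+ replicate 1, 2 or 3 the count was 9 (17.9%), 23 (20.9%) and 7 (16.8%). Without TSPAN8-high replicate 1, 2 or 3 it was 3 (10.6%), 3 (10.9%) and 4 (9.45%). Without TSPAN8-low replicate 1, 2 or 3 it was 31 (20.1%), 4 (11.6%) and 4 (11.6%). Dropping replicate 1 from every group gave 14 (14.4%), dropping replicate 2 gave 4 (10.3%) and dropping replicate 3 gave 1. The background fell too, to 6.99% without replicate 3. The cause was not tested. The block with a common median called 16 members (17.9%) and with quantile normalization 8 (17.7%). Between TSPAN8-high and all ID4-EGFP+ the block called 0 to 7 members with libraries left out. It called 0 with a common median (2.78%) and 1 with quantile normalization (3.23%). Absolute depth is unknown, so no counting error can be given.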
